A study of Mus musculus with 19 samples.

Results

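The microRNA (miRNA) content of the liver of vehicle-treated mice was described from 5 of the 19 arrays of a study of dibenz[a,h]anthracene, the 5 whose titles give a dose of 0 mg/kg. Each array was hybridized with liver RNA of 1 male MutaMouse animal, a mouse strain that carries a transgenic mutation reporter (strain 40.6), aged 10 weeks. These animals received the olive oil vehicle alone, by daily gavage for 28 days, and their livers were removed 3 days after dosing ended. They are referred to by the sample numbers of their titles, as animals 1, 10, 17, 19 and 22. All values below come from these 5 arrays, and no dosed group was compared with them. Whole liver was used, so the RNA came from hepatocytes together with every other cell of the organ and the blood it held, and fewer cells of a type and less RNA per cell cannot be told apart.

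A miRNA is a short RNA that is cut from a hairpin precursor, loaded into an Argonaute protein and directed to messenger RNAs mainly by its seed, the stretch from base 2 to base 8. miRNAs with the same seed form a family with largely shared targets. Many hairpins lie in clusters that are transcribed together, and the arm of a hairpin that is kept less often, the passenger strand, was written with a star in the nomenclature of this array. In hepatocytes the leading miRNA is miR-122, which is nearly restricted to this cell type and acts on lipid and cholesterol metabolism, and miR-192 is a second hepatocyte miRNA that is shared with gut and kidney epithelium.

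The array carried probes for 696 mouse miRNA names. Of these, 172 were detected on all 5 arrays, 60 on 1 to 4 arrays and 464 on none. The numbers detected per array were 181 in animal 1, 204 in animal 10, 205 in animal 17, 204 in animal 19 and 209 in animal 22. Animal 1 lay below the other 4, which were within 5 of each other. The 172 miRNAs found in every animal held 99.7% of the detected signal, and the 60 found in some animals held 0.274%. The label was checked against the 2 liver markers: miR-122 and miR-192 were detected on all arrays. By total signal, miR-122 was the brightest miRNA on 4 of 5.

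The unit used for abundance is the share of signal, the scanner software's background-subtracted total signal of a miRNA in percent of the sum over the mouse miRNAs detected on the same array. Probes differ in how much signal they give per molecule, so the order below is an order of array signal and not of molecule numbers. Shares on an array add up to 100%, so that a larger share of one miRNA leaves a smaller one for the rest. The summed signal was 96669 in animal 1, 118609 in animal 10, 160404 in animal 17, 114320 in animal 19 and 169510 in animal 22, a range of 1.75-fold, and 0 of the 13920 spots per array that carried miRNA or other non-control probes were saturated. The 5 arrays lay on 3 slides. Animals 17, 19 and 22 shared a slide, and animals 1 and 10 were each the only vehicle array on theirs, so for these 2 slide and animal cannot be told apart.

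The sequences of the brightest miRNAs show which of them are families and which stand alone. Of the 25 with the largest mean share, 20 had a mature sequence in RefSeq (mouse build GRCm38.p6). They are printed from the 5′ to the 3′ end with the seed in capitals, first those that share a seed and then the others, each group from the brightest down. The first group is the let-7 family, which restrains growth-promoting genes in differentiated tissue and had 6 members among the 25.
let-7f: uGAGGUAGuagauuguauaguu
let-7a: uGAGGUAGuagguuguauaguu
let-7g: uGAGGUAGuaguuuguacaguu
let-7c: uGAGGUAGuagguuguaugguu
let-7b: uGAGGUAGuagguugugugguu
let-7d: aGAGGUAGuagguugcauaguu

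The second group is the miR-29 family, known as a repressor of collagens and other matrix genes, with all 3 members among the 25.
miR-29a: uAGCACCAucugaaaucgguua
miR-29b: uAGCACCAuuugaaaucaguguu
miR-29c: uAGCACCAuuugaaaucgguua

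The other sequences each had a seed that no other of these 20 shared, and they follow in the order of the share of their seed family.
miR-21: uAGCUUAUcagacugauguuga
miR-22: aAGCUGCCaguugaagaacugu
miR-451: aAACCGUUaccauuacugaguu
miR-192: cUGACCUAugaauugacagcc
miR-15a: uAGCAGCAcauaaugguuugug
miR-148a: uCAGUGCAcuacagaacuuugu
miR-26b: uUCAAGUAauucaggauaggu
miR-126-3p: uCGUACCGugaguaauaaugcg
miR-30a: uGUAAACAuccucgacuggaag
miR-130a: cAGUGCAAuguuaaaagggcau
miR-101b: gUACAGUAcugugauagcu

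In the genome, miR-21 lies at chr11:86584120-86584141 on the minus strand, miR-22 at chr11:75463772-75463793 on the plus strand, miR-148a at chr6:51269829-51269850 on the minus strand and miR-126-3p at chr2:26591402-26591423 on the plus strand. Of these 20 sequences, 14 began with U, 3 with A, 2 with C and 1 with G. Their content of G and C ran from 31.8 to 47.6%, with a median of 40.9%. The remaining 5 of the 25 are miR-122, miR-1937b, miR-720, miR-1274a and miR-2146_v15.0. Close members of a family are hard for a hybridization probe to tell apart: let-7a differed from let-7f, let-7c and let-7e at 1 position each, and miR-29a from miR-29c at 1. How much of the signal of a let-7 probe came from its relatives was not tested.

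The signal was held by few miRNAs. On each of the 5 arrays, 3 names reached 50% of the detected signal, and 21 to 25 names reached 90%. From the mean shares 90% took 23 names, and 49 in the authors' deposited value table. The 10 brightest names of an array held 82.0% in animal 1, 79.7% in animal 10, 79.8% in animal 17, 81.5% in animal 19 and 78.8% in animal 22, a mean of 80.4% ± 1.35 (SD, n = 5). The 5 curves of cumulative share lay close together. At the other end, 130 to 154 of the miRNAs detected on an array held less than 0.1% of its signal each, and 9 to 11 held more than 1%. The lowest total signal of a detected miRNA was between 1.64 and 2.29 units, and each undetected miRNA was listed at 0.1 units by the scanner software.

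**Figure D1:**
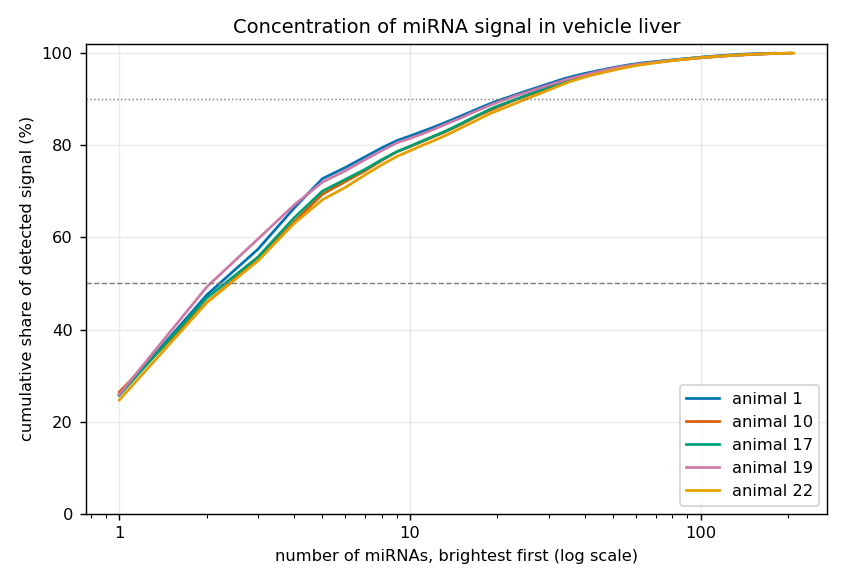
Cumulative share of detected miRNA signal (%, vertical axis) against the number of miRNAs, brightest first (log scale, horizontal axis), 1 line per vehicle animal. The dashed line at 50% is reached with 3 names in each animal and the dotted line at 90% with 21 to 25.

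miR-122 had the largest share, 25.8, 26.4, 25.8, 23.3 and 24.7% in animals 1, 10, 17, 19 and 22, a mean of 25.2% ± 1.21 (SD, n = 5). The second name, miR-1937b, had 21.8, 19.5, 21.1, 25.9 and 21.1%, a mean of 21.9% ± 2.41 (SD, n = 5). The order of these 2 was turned in animal 19, where miR-1937b was the brightest. By the brightest probe alone, miR-1937b was also above miR-122 in animal 1. Within an array, the total signal of miR-122 was 11.2 to 13.1 times that of miR-192, the other liver marker. With signals scaled to the array's 75th percentile instead of to the sum, miR-122 varied by an SD of 0.068 on the log2 scale over the 5 animals and miR-192 by 0.063.

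miR-1937b is not alone among the brightest names in its origin. miR-720, the third name, had 9.94, 9.35, 8.87, 10.4 and 8.15% in the same order of animals, and miR-1274a had 0.424, 0.384, 0.447, 0.547 and 0.452%. These names, with miR-1937c, were later withdrawn from the miRNA catalogue because their sequences are pieces of transfer RNA. All 4 such names on the array were detected in every animal, and together they held 32.2, 29.3, 30.5, 37.0 and 29.9% of the signal. Animals 19 and 1 had the largest of these shares and also the smallest summed signals of the 5, but whether the 2 measures are linked was not tested. With the 4 names left out of the total, an alternative chosen after seeing the data, miR-122 held 36.9% ± 1.05 (SD, n = 5). Its lowest share was then 35.2% in animal 22, and animal 19, with 37.1%, no longer stood lowest.

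miR-21, which is broadly expressed and often raised in injured tissue, had 8.96, 8.14, 8.54, 7.39 and 9.09%, a mean of 8.42% ± 0.689 (SD, n = 5). Its values overlapped those of miR-720, and in animal 22 it was the brighter of the pair. miR-22, a miRNA abundant in heart and liver, had 6.36, 5.99, 5.78, 4.96 and 5.11%, and kept the fifth place in all 5 animals. After it came a gap: the sixth name, let-7f, had 2.53% ± 0.199 (SD, n = 5), and neither its range nor that of any later name reached the lowest value of miR-22. Together, miR-122, miR-21, miR-22 and the let-7 family held 43.2 to 49.0% of the signal of an animal.

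**Figure D2:**
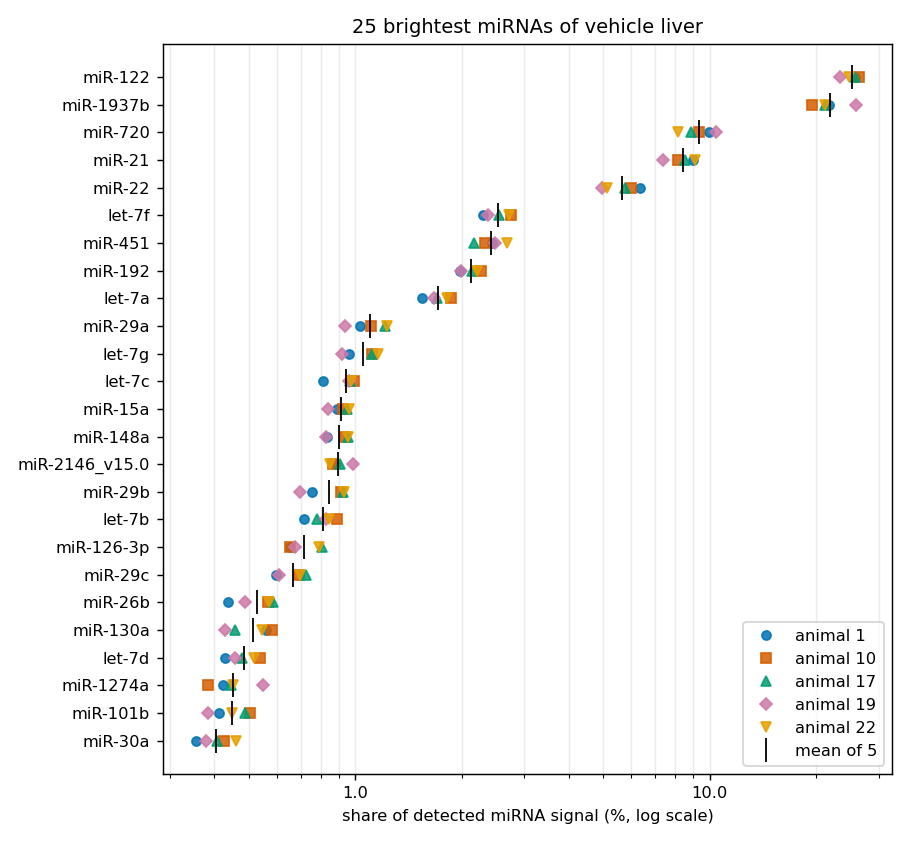
Share of detected miRNA signal (%, log scale, horizontal axis) of the 25 miRNAs with the largest mean share, 1 point per vehicle animal and a vertical bar at the mean of 5. miR-122 (23.3 to 26.4%) and miR-1937b (19.5 to 25.9%) overlap, and from miR-29a on down the points of most neighbours overlap.

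Among the 25 pairs of neighbours formed by the 26 brightest names, 7 kept their order in all 5 animals and 6 did not overlap. The steps without overlap were from miR-1937b to miR-720, from miR-21 to miR-22, from miR-22 to let-7f, from miR-192 to let-7a, from let-7a to miR-29a and from miR-29c to miR-26b. By share, miR-451 lay above miR-192 in all 5 animals, although the ranges of the pair overlapped. From the brightest probe alone this order was turned, with miR-192 at place 7 and miR-451 at place 8. Of the 10 brightest names, 9 were among the 10 brightest in every animal, and 12 names appeared there in at least 1. let-7f and miR-451 exchanged the sixth and seventh places, and the 7 names from let-7c to miR-126-3p, between 0.939 and 0.715% on average, each changed places in at least 1 animal.

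The 9 members of the let-7 family were detected in every animal, and their summed share was 7.05, 8.45, 7.90, 7.48 and 8.36%, a mean of 7.85% ± 0.595 (SD, n = 5). let-7f led with 2.29, 2.74, 2.55, 2.37 and 2.70%, followed by let-7a with 1.54, 1.86, 1.70, 1.66 and 1.81%. These 2 members made up 53.8 to 54.4% of the family's signal in each animal, an almost constant part. let-7g had a mean share of 1.05%, let-7c of 0.939%, let-7b of 0.809% and let-7d of 0.484%. The last 3 members, let-7i with 0.224%, let-7e with 0.0494% and miR-98 with 0.0423%, were well below them. let-7c was lowest in animal 1, with 0.808% against 0.960 to 0.993% in the other 4.

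The 3 members of the miR-29 family held 2.39, 2.71, 2.86, 2.24 and 2.85% in all, a mean of 2.61% ± 0.282 (SD, n = 5). miR-29a had a mean share of 1.10%, miR-29b of 0.843% and miR-29c of 0.665%. Other families also had every listed member detected in each animal. The miR-15/16 family, which acts on cell cycle genes, held 1.32 to 1.52% over 6 members, and miR-15a (0.912%) led miR-16 (0.269%) in each animal by a factor of 3.08 to 4.85. The family of miR-148 and miR-152 held 0.855 to 0.990%, nearly all of it miR-148a, a hepatocyte miRNA that represses Dnmt1. The miR-26 family held 0.743 to 1.01%, the miR-30 family 0.593 to 0.806% and the miR-23 family 0.603 to 0.741%. miR-101a and miR-101b, whose seeds from base 2 to base 8 are not the same, together held 0.652 to 0.846%. The miR-19 family held 0.287 to 0.405%, the miR-27 family 0.294 to 0.337% and the pair of miR-103 and miR-107 0.282 to 0.359%.

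The growth-associated miR-17 family was small in comparison. It held 0.225 to 0.280% over its 4 detected members, miR-20a, miR-106b, miR-20b and miR-93, while miR-17 itself was not detected on any array. The miR-181 family, which is prominent in lymphocytes, was detected in 1 animal only and with 1 of 4 members: miR-181a had 0.00361% in animal 1. Of the 8 names of the family of miR-34 and miR-449, only miR-34a, a target of p53, was detected. It was found in every animal, which makes 12.5% of the family, beside 24.7% of all names. miR-34a had 0.0164, 0.0151, 0.0182, 0.0140 and 0.0186%. Its mean of 0.0165% put it at place 118 of the order.

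Lists of miRNAs that mark cell types were summed to show which cells the signal could come from. The hepatocyte list had 8 of 9 members detected in every animal, beside 24.7% of all names, and miR-215 was detected in none. It held 30.0, 31.2, 30.4, 27.4 and 29.3% of the signal. miR-122 made up most of that, and the other members together held 4.08 to 4.77%. miR-192 had 1.97, 2.27, 2.14, 1.99 and 2.20%. miR-194, which is made from the same precursor as miR-192, had 0.347% on average, miR-148a had 0.901%, miR-101b had 0.447% and miR-101a had 0.324%.

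The hepatocyte members differed in how far apart the animals were. After scaling, miR-148a (SD 0.030 log2), miR-192 (0.063), miR-194 (0.064) and miR-122 (0.068) were among the steadiest miRNAs of the liver. The median SD was 0.21 over the 172 and 0.12 over the 43 brightest by level. Before scaling, these members had SDs of 0.44, 0.37, 0.46 and 0.35, against a median of 0.41. After scaling, miR-101b (0.087), miR-101a (0.094) and miR-193, also on the list (0.22), spread more. miR-802, a hepatocyte miRNA tied to glucose metabolism, spread most of the list. Its share was 0.0122, 0.0244, 0.0341, 0.0106 and 0.0216%, and its SD of 0.64 was the second largest of the 172. Animals 1 and 19, the ones with the smallest summed signal, had the lowest miR-802 and animal 17 the highest.

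Blood cells gave the next largest list. miR-451, an erythroid miRNA whose maturation depends on Argonaute2 and bypasses Dicer, had 2.43, 2.32, 2.15, 2.48 and 2.68%. miR-144 from the same locus had 0.130, 0.126, 0.125, 0.133 and 0.138%. The highest and the lowest miR-451 and miR-144 were found in the same animals, 22 and 17. The leukocyte list held 0.308, 0.349, 0.398, 0.255 and 0.364%, with 5 of 7 members (71.4%) in every animal, beside 24.7% of all names. miR-142-3p, found in all blood lineages, led it with 0.209%, before miR-223, a myeloid miRNA, with 0.0606%, miR-146a with 0.0414% and miR-142-5p with 0.0164%. The fifth, miR-342-3p, had 0.00496, 0.00476, 0.0144, 0.00400 and 0.00990%. miR-150 and miR-155, which are typical of lymphocytes, were not detected in any animal. Animal 19 had the lowest miR-142-3p (0.157% against 0.182 to 0.250%), miR-142-5p and miR-146a of the 5.

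Endothelial and stromal markers were present in every animal at lower shares. miR-126-3p, which lies in the endothelial gene Egfl7, had 0.654, 0.652, 0.803, 0.674 and 0.792%, and its partner arm miR-126-5p was detected in 4 animals with at most 0.00700%. The stromal list, with miR-199a and miR-214 of stellate cells and fibroblasts and miR-143 of smooth muscle, held 0.150, 0.125, 0.122, 0.125 and 0.168%. miR-199a-3p led it with 0.0790%. miR-145, the usual partner of miR-143, was not detected in any animal. The list for bile duct and other epithelium held 0.0718 to 0.0947%, with miR-31, miR-203, miR-200a and miR-200b in every animal and miR-141 and miR-205 in none. The list of pancreas and endocrine cells had 1 of 6 members (16.7%) detected in every animal, beside 24.7% of all names. That member, miR-7a, had 0.0268 to 0.0353%, and miR-375 was not detected.

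Muscle miRNAs separated animal 22 from the others. miR-1 and miR-133a are made in heart and skeletal muscle, and miR-133b and miR-206 in skeletal muscle. In animal 22 miR-1 held 0.505% of the signal, which was place 23 on that array, miR-133b held 0.142%, miR-133a held 0.0616% and miR-206 held 0.0321%. None of the 4 was detected in animals 1, 10, 17 or 19. The signal of the brightest miR-1 probe was 1119 units in animal 22 and 2.40, 1.35, 1.42 and -0.737 units in the other 4. For miR-133b it was 306 units against 2.45 to 3.40, for miR-133a 140.0 units against 1.61 to 2.62 and for miR-206 59.1 units against -1.14 to -0.387. All spots of these 4 probes were well above background in animal 22. miR-133a*, the passenger strand of miR-133a and no member of the list, was also found in animal 22 only.

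The list's members miR-208b and miR-499, which lie within myosin genes of heart and slow muscle, were not detected in any animal, animal 22 included. The summed share of the muscle list was thus 0.740% in animal 22 and 0 in the other 4, more than the leukocyte list of the same animal (0.364%). Animal 22 also had the highest miR-143 (0.0411% against 0.0215 to 0.0278%) and the highest miR-10b (0.0113% against 0.00423 to 0.00613%). Its hepatocyte list, 29.3%, lay within the range of the others. The mean share of the muscle list over the 5 animals, 0.148%, rests on animal 22 and is 0 without it. The source of this signal was not tested.

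Lists of other tissues were looked at beside the 66.7% of all names that were detected in no animal. Of 9 neuronal names on the array, 8 were detected in no animal, and miR-128 had 0.00278% in animal 22. Of 13 names of embryonic stem cells, 12 were detected in none, and miR-290-3p was detected in all 5 with 0.0309, 0.0225, 0.0160, 0.0254 and 0.0183%. Of 48 names of the imprinted Dlk1-Dio3 locus, a large cluster active in embryo, placenta and brain, 4 were detected in every animal and 43 in none. Of 41 names of the families in the Sfmbt2 intron, 1 was detected in every animal, 10 in some and 30 in none.

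**Figure D3:**
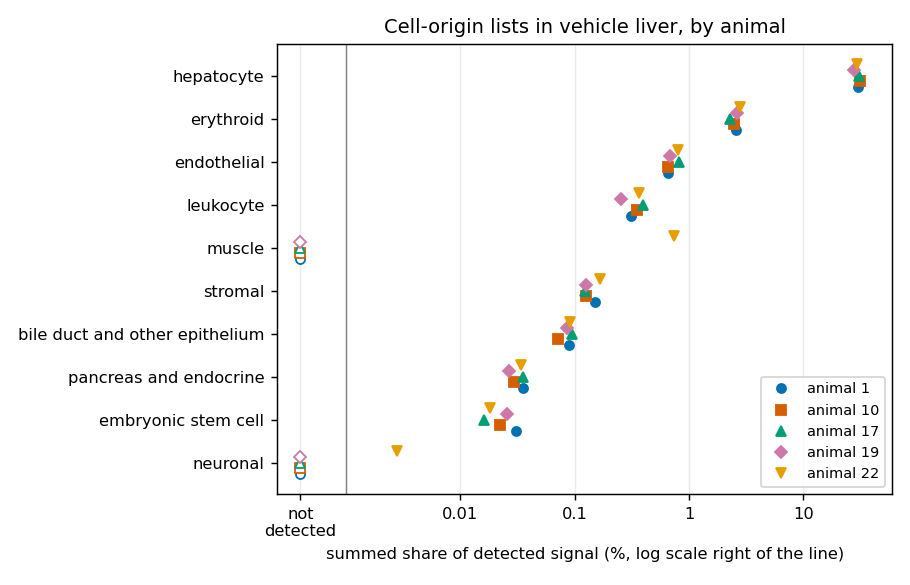
Summed share of detected signal (%, log scale to the right of the grey line, horizontal axis) of 10 lists of cell-origin markers, 1 point per vehicle animal. Open symbols to the left of the line are animals in which no member was detected. The muscle list has signal in animal 22 only (0.740%), while the hepatocyte list lies between 27.4 and 31.2% in all 5.

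Of the 17 miRNAs detected in 4 of 5 animals, 13 were absent from animal 1. Of the 13, 5 (miR-467f, miR-466g, miR-466i-3p, miR-669f-3p and miR-669n) belong to the families in the Sfmbt2 intron, while the other 8 do not. These families hold 41 of the 696 names, and 10 of the 60 names detected on 1 to 4 arrays. The summed share of the 41 names was 0.00226% in animal 1, 0.0884% in animal 10, 0.0651% in animal 17, 0.0886% in animal 19 and 0.0218% in animal 22. Animals 1 and 22 were thus low and the other 3 high. The summed signal of the arrays had another order, lowest in animal 1 and highest in animal 22. miR-466f-3p, the member detected in all 5, had 0.00226, 0.0115, 0.00973, 0.0118 and 0.00438%. These names carry closely similar sequences, and how far their probes share signal was not tested.

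Passenger strands made up a small part of the signal. Of 118 starred names, 16 (13.6%) were detected in every animal, beside 24.7% of all names. In no animal were 87 of them detected, beside 66.7% of all names. In all, starred names held 0.307 to 0.354%. There were 7 hairpins of which both the plain and the starred name were found in every animal, and in all 7 the plain name had the larger share in each of the 5 animals. miR-22* had 0.0426% on average, and miR-22 gave 112 to 178 times its signal in the same animal. For miR-30a and miR-30a* that factor was 9.05 to 10.2, and for miR-140 and miR-140* 2.26 to 3.22. The arm ratio of miR-30a was thus held within a narrow range in the 5 animals. In another 5 hairpins (those of miR-877, miR-191, miR-3072, miR-299 and miR-17) the starred name was detected in every animal and the plain name in none. Of these, miR-877* (18.1 to 21.8 units), miR-191* (15.6 to 17.7) and miR-299* (7.67 to 8.75) did not follow the overall signal of the arrays. They are among 25 miRNAs, described below, that spread less before scaling than after. Whether their signals come from the named arm was not tested.

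miRNAs that are cut from neighbouring hairpins kept steady ratios. let-7f, let-7a and let-7d lie together at chr13:48536012-48538272 on the minus strand, although let-7f also has a second locus on the X chromosome. The log2 ratio of let-7f to let-7d had an SD of 0.024 over the 5 animals, that of let-7a to let-7d 0.029 and that of let-7f to let-7a 0.031. miR-451 and miR-144 lie at chr11:78073005-78073241 on the plus strand, and their ratio was 18.7, 18.4, 17.2, 18.6 and 19.4, with an SD of 0.042 on the log2 scale of the brightest probes. miR-192 and miR-194, at chr19:6264643-6264932 on the plus strand, had a ratio of 5.78 to 6.32. miR-29a and miR-29b, at chr6:31062660-31063093 on the minus strand, had one of 1.21 to 1.36. miR-194 and miR-29b have a further locus elsewhere in the genome.

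Pairs of detected miRNAs were taken from the same hairpin, or from hairpins within 10000 bases of the next on the same strand. Over these 35 pairs the median SD of the log2 ratio was 0.11, and over all 14706 pairs of the 172 miRNAs it was 0.31. Pairs of bright miRNAs had steadier ratios in any case. Among the 43 brightest by level, 11 of the 35 pairs had a median of 0.085, and all 903 pairs had 0.18. Within the let-7 family, 5 neighbouring pairs had a median of 0.031 and the 31 other pairs 0.088. These are descriptions over pairs that share members and families, and no test was made. Members of the 35 pairs were not always alike. The largest SD was 0.32, for miR-574-3p and miR-574-5p, the arms of the same hairpin. Neighbouring hairpins among the 35 pairs had at most 0.27, for miR-15b and miR-16, followed by 0.24 for miR-106b and miR-93. The 35 pairs cover only names with matched positions, and miR-15a with miR-16 was not among them. The arms of miR-340 had 0.22.

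The spread between animals was taken on the log2 scale for the 172 miRNAs detected in all 5, using each miRNA's brightest probe relative to the 75th percentile of its array. The median SD was 0.21, which corresponds to a factor of 1.16, against 0.41 with no scaling and 0.089 in the authors' deposited value table. The middle part of the 172, from the lower to the upper quartile, lay between 0.13 and 0.31. For 170 of the 172, the SD between animals exceeded the standard error that the repeated spots of the probe gave within an array. The median ratio was 4.41. Each animal had 1 array, so the SD also holds differences in labelling, hybridization, slide and scaling, which the spot error leaves out. Animal and array cannot be told apart here. No array was identical to another.

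After scaling, the SD fell with the level. The 172 miRNAs were cut by level into 4 sets of 43. The median SD was 0.12 in the brightest set, 0.16 in the next, 0.30 in the third and 0.28 in the dimmest. Before scaling, the medians of these sets were 0.42, 0.42, 0.39 and 0.39, which is no such fall. The rank correlation of level and SD across the 172, after scaling, was -0.54. The points share arrays and scaling, and the correlation is given as a description. The 8 smallest SDs belonged to miR-140* (0.025), miR-148a (0.030), miR-15a (0.038), miR-29c (0.043), miR-192 (0.063), miR-223 (0.063), miR-194 (0.064) and miR-361 (0.066). Of these, miR-148a, miR-192 and miR-194 are on the hepatocyte list and miR-223 is myeloid. The level of miR-148a was 2.08, 2.12, 2.12, 2.11 and 2.16 log2 units above the 75th percentile in animals 1, 10, 17, 19 and 22.

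**Figure D4:**
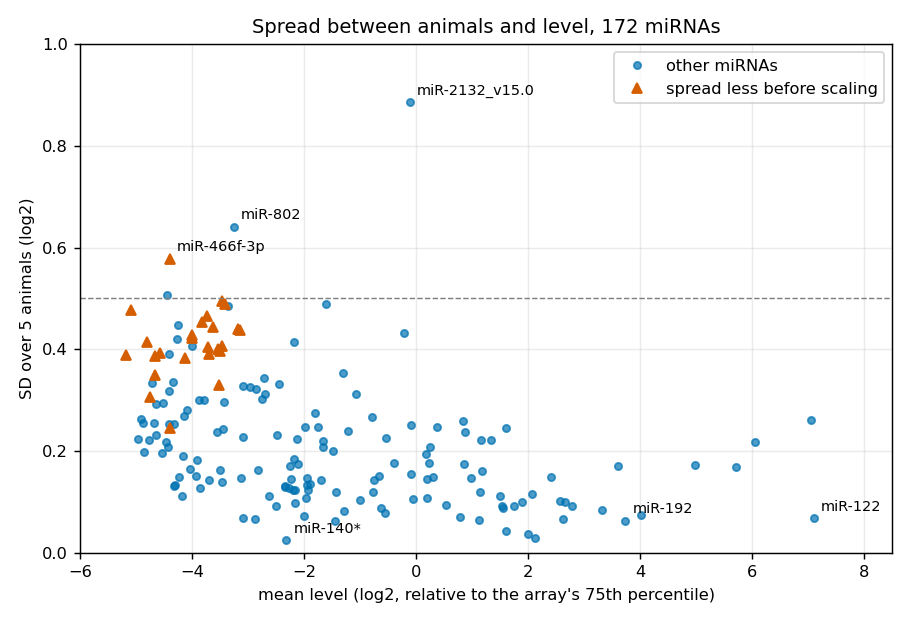
SD over the 5 vehicle animals (log2, vertical axis) against the mean level relative to the array's 75th percentile (log2, horizontal axis), 1 point for each of 172 miRNAs. The dashed line marks an SD of 0.5, which 4 miRNAs exceed, and triangles mark 25 miRNAs that spread less before scaling than after.

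An SD above 0.5 was found for 4 miRNAs, a number that rose to 12 without animal 10 and to 10 without animal 22. It was 42 with no scaling, 37 after normexp, 15 from total signals, 8 with the percentile over all probes and 1 in the authors' deposited value table. miR-2132_v15.0 had the largest, 0.89, with shares of 0.124, 0.230, 0.213, 0.0759 and 0.0514%, high in animals 10 and 17 and low in animals 19 and 22. Its spots within an array differed far less, with a standard error of 0.014. The others were miR-802 (0.64), miR-466f-3p (0.58) and miR-574-3p (0.51), which had 0.00199% in animal 1, 0.0131% in animal 10, 0.0101% in animal 17, 0.0129% in animal 19 and 0.00373% in animal 22. Both miR-466f-3p and miR-574-3p were low in animals 1 and 22. The next 4 in order were miR-668 (0.50), miR-290-3p (0.49), miR-2140_v15.0 (0.49) and miR-2861 (0.49).

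miR-668, miR-290-3p and miR-466f-3p spread less between the arrays before scaling than after. The 75th percentile of signal was 168 units in animal 1, 215 in animal 10, 309 in animal 17, 190 in animal 19 and 316 in animal 22, a range of 1.88-fold, and the signal of most miRNAs rose and fell with it. Yet 25 of the 172 had a smaller SD before scaling than after, a set chosen after seeing the data. let-7f-1* had 19.9, 18.7, 20.6, 20.0 and 19.9 units in animals 1, 10, 17, 19 and 22, and let-7b* had 21.2, 19.9, 20.6, 21.1 and 21.8. miR-290-3p had 23.5, 19.4, 18.7, 22.9 and 24.1 units, with an SD of 0.17 before scaling and 0.49 after. Not all of the 25 were steady: miR-466f-3p ran from 6.62 to 15.6 units and miR-200b from 16.6 to 36.6. Over the 25, the highest array exceeded the lowest by a median of 1.21-fold, and over the other 147 by 2.03-fold.

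All 25 lay in the dimmer part of the order: 13 in the third of the 4 sets by level and 12 in the dimmest, with at most 0.0248% of the signal each and 0.347% in all. Over all 172 miRNAs the 25 are a share of 14.5%. They included 3 of the 4 miRNAs of the Dlk1-Dio3 locus that were detected in every animal, the 1 embryonic stem cell name and 5 of the 16 starred names. They held 0 of 8 on the hepatocyte list and 0 of 9 of the let-7 family. Nothing particular to these lists was tested. Once scaled, 24 of the 25 were higher in both animals with the lowest 75th percentile (1 and 19) than in both with the highest (17 and 22). Dividing a signal that differs little between arrays by the percentile gives that pattern by construction. Why these signals did not follow the percentile was not tested.

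**Figure D5:**
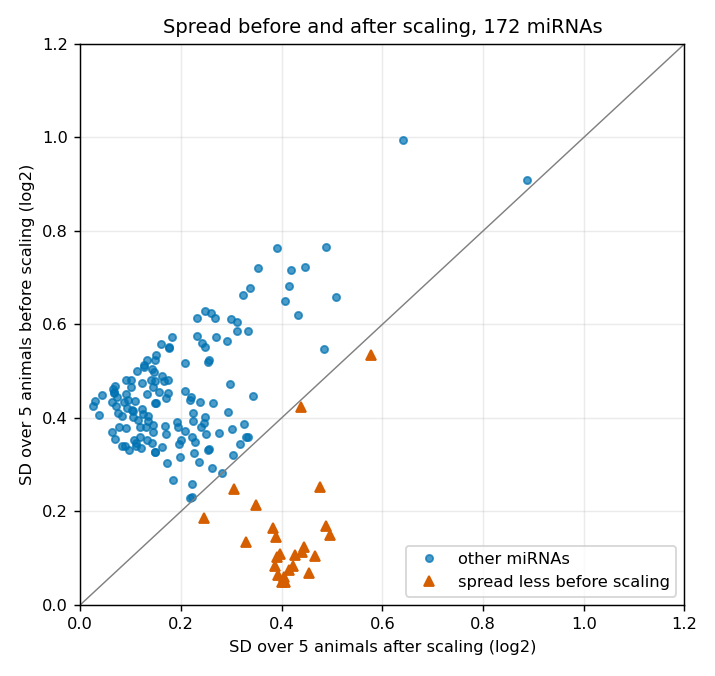
SD over the 5 vehicle animals before scaling (log2, vertical axis) against the SD after scaling to the array's 75th percentile (log2, horizontal axis), 1 point for each of 172 miRNAs, with the line of equal values. The 25 miRNAs below the line (triangles) spread less before scaling, most of them with an SD under 0.2 before and near 0.4 after.

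The dimmest miRNAs detected in every animal were miR-667, miR-1839-3p, miR-24-1*, miR-423-5p and miR-671-3p, with mean shares from 0.00232 to 0.00422%. Their spot standard errors, 0.099 to 0.34 on the log2 scale, were above the 0.038 that was the median of the 172. Between the animals, miR-667 ran from 0.00121% in animal 22 to 0.00359% in animal 1.

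The brightest names were the same when taken from the other signal column, but not every place was. With the background-subtracted spot signals averaged per probe and summed per miRNA, all 10 of the 10 brightest and all 25 of the 25 brightest names were the same, and the rank correlation over the 172 miRNAs was 0.98. With these sums miR-30a moved from place 25 to 20. With the brightest probe alone, all 25 of the 25 names were again the same, but more places changed. miR-29b moved from place 16 to 11 and miR-30a from place 25 to 19, and miR-192 stood above miR-451. In animals 1 and 19 miR-1937b then stood above miR-122.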

How the data were processed

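Liver RNA (100 ng of total RNA with its small fraction) was labelled with Cyanine 3-pCp and hybridized to one-colour Agilent miRNA arrays, per the labels' protocols. The authors deposited 1 scanner text file per array. Per the file headers, Agilent Feature Extraction 10.7.3.1 read the spots and gave an intensity per spot with the background subtracted, a total intensity per miRNA and detection flags. The series' value table, as the authors deposited it, holds log2 values. Its column medians in the vehicle arrays lay between 5.039 and 5.045, it covered 636 of the 696 names, and its background correction and scaling are not given in the sources used here. It was used as an alternative only. The 14 dosed arrays were not used here.

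Control spots were removed and spots marked as outliers were left out. Shares used the total intensity per miRNA in percent of the sum over the mouse miRNAs flagged as detected on that array. Levels used the spots averaged over each of 1937 probes, divided by the array's 75th percentile over the 267 probes of which at least 50% of spots were well above background on all 5 arrays, as log2 of the brightest of the 1 to 4 probes of a miRNA. All results are descriptions, with no test between groups. The precision is limited by the number of arrays, and the labels do not name the cage or litter of an animal, so each SD covers the spread between these samples. The routines for shares and for the number of names that reach a percentage were tested on simulated data. The scaling and the choice of probe behind the SDs were not. Python 3.11.15, pandas 2.3.3 and numpy 2.4.6 were used, and normexp was run in limma 3.58.1 (R 4.3.3).

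The miRNAs named are the 25 with the largest mean share, up to 4 brightest detected members of each list, the 8 largest and 8 smallest SDs, the 5 dimmest detected on all arrays, miR-122 and miR-192. Others were named after their values were seen: miR-1937c, the lower let-7 members, partner arms, neighbours in a cluster, miR-342-3p and miR-193. So were list members that were not detected, and examples of steady signal. The members and lists were chosen with earlier results of these data known. Mature sequences and positions came from RefSeq (GRCm38.p6). Of 172 miRNAs detected on all arrays, 101 were matched, the older names through a hand-made list of arm names, so base composition is given only for the 20 matched among the 25 brightest.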

Additional observations from a re-analysis of the deposited data

Results flagged for a closer look

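Among 143 sets of 5 values examined (whole-array measures, the miRNAs named by the rule, and the lists), 12 held 1 animal whose gap to the nearest other exceeded the limit of Dixon's test at 5 values. Chance alone is expected to mark about 1 in 20 such sets, and the sets overlap, since a list holds miRNAs that are also counted singly. For most of the 12 the other 4 values are 0, because the miRNA, or every member of the list, was detected in 1 animal.

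Animal 22 stood apart for the muscle list (0.740%), for its members miR-1 (0.505%), miR-133b (0.142%), miR-133a (0.0616%) and miR-206 (0.0321%), for miR-10b (0.0113%, against a median of 0.00575%), and for the neuronal list through miR-128 (0.00278% for both). Animal 1 stood apart for the number of miRNAs detected (181, against a median of 204), for let-7c (0.808%, against a median of 0.965%) and for the miR-181 family through miR-181a (0.00361% for both).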

How the results depend on the processing

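The planned normexp correction of mean spot signals was not run, because the files hold median signals. It was run on those instead, and this, the total without the 4 transfer RNA names and the leave-one-out values of the muscle list were chosen after seeing the data. No paired analysis was possible because only 1 group is described.

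The share of miR-122 was 23.1% from the brightest probe, 23.9% after normexp and 36.9% without the transfer RNA names. That of the hepatocyte list was 27.5% from the brightest probe and 43.5% without those names, where the let-7 family held 11.5%. The 10 brightest names held 73.8% in the value table, 77.9% after normexp and 75.002% without the transfer RNA names, and 49 names reached 90% in the value table. Summed processed signals, and all names kept in the total, moved none of the 6 measures of share by more than 1 SD or, for the counts, by 1.5 times.

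The median SD between animals was 0.41 with no scaling, 0.27 with the percentile over all probes, 0.20 after quantile normalization, 0.27 after normexp, 0.089 in the value table and 0.18 on the slide of animals 17, 19 and 22 alone. The number of miRNAs with an SD over 0.5 was 42 with no scaling, 8 with the percentile over all probes, 15 from total signals, 37 after normexp and 1 in the value table. The cause was not tested.

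With 1 animal left out, the median SD ran from 0.18 to 0.20 and the number over 0.5 from 4 to 12, with 12 without animal 10 and 10 without animal 22. The share of miR-122 ran from 24.9 to 25.7%, of the 10 brightest names from 80.0 to 80.8%, of the let-7 family from 7.70 to 8.05% and of the hepatocyte list from 29.3 to 30.2%. In these runs 3 names reached 50% and 23 to 24 reached 90%. The number of miRNAs detected on all arrays, 172, was 172 to 185 with 1 animal left out, 189 on at least 4 arrays and 143 by probes well above background.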

Other observations

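The names from miR-2132 to miR-2146 were bright as a group. Whether their signals come from miRNAs was not tested. Of 12 such names on the array, 10 were detected in every vehicle animal, and together they held 1.64, 1.86, 1.97, 1.94 and 1.63% of the signal in animals 1, 10, 17, 19 and 22. miR-2146_v15.0 led them with 0.895% ± 0.0536 (SD, n = 5), the fifteenth place of all names. Within the group miR-2132_v15.0 was high in animals 10 and 17, while miR-2140_v15.0 was lowest in animal 1 (0.0288%) and highest in animal 19 (0.0641%), so the names did not share one order of animals.

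The miRNAs detected in 1 animal alone were unevenly spread: 3 in animal 1, 1 in animal 10, 1 in animal 17, 5 in animal 19 and 10 in animal 22. Those of animal 22 were the 4 muscle names, miR-133a*, miR-376c, miR-532-5p, miR-128, miR-193b and miR-30b*. Those of animal 19 were miR-1952, miR-204, miR-1196, miR-211 and miR-423-3p. After scaling, animal 17 was the lowest of the 5 for 64 of the 172 miRNAs detected in all animals and the highest for 14, and its median difference from the median animal was -0.06 on the log2 scale.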
